A study of Mus musculus with 6 samples.

Results

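Classical cadherins are calcium-dependent adhesion proteins of the neuronal surface, and 10 genes of this family were followed here in mouse cervical motor neurons, taken at e12.5 by cell sorting. The members are the type I genes Cdh2 (N-cadherin) and Cdh4 (R-cadherin), the type II genes Cdh6, Cdh7, Cdh8, Cdh11, Cdh12, Cdh20 and Cdh22, and Cdh13 (T-cadherin). Every probe that the platform annotation gives to 1 of these symbols was taken, whether or not it was detected. The members are 10 of the 19057 genes with a symbol of their own on the array, and they have 25 of its 45281 probes, 1 to 6 per gene. The 3 wild-type and 3 mutant samples each had their RNA measured on a single-colour Illumina bead array. Per the series title the mutant combines a floxed Hoxa5 allele (Hoxa5 fl/fl) with olig2CRE, a recombinase driven by a gene of motor neuron progenitors, and with a Hoxc5-/- null allele. Both groups carried HB9::GFP, a reporter that lights up motor neurons for sorting, and both had a mixed c57/bl6, balbc and fvb background. Whether wild-type embryos carried olig2CRE, and whether a sample held 1 embryo or several, is not stated in the labels. P-values therefore set a group difference against the spread of these 6 samples within their groups, which may be partly technical.

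Cadherins of 2 neighbouring cells bind each other through their outermost extracellular domain. Inside the cell, type I and type II cadherins bind catenins, which link them to actin, whereas T-cadherin has no cytoplasmic tail and is held in the membrane by a lipid anchor. In the spinal cord, motor neurons of different pools carry different combinations of type II cadherins, and these combinations, together with N-cadherin, take part in the grouping of motor neuron cell bodies. In mice, N-cadherin and type II cadherins have been linked to the position and dendrites of phrenic motor neurons, the cervical cells that drive the diaphragm.

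The targeted genes did not check the genotype. The Hoxa5 probe was detected on all 6 arrays, with log2 means of 13.99 ± 0.0432 (SD, n = 3) in wild type and 13.54 ± 0.348 (SD, n = 3) in the mutant. The Hoxc5 probe was at 6.58 ± 0.105 (SD, n = 3) and 7.31 ± 0.633 (SD, n = 3). No source used here says whether the deletions remove the sequence these probes bind. "Mutant" below means an array so labelled, and every direction rests on that label.

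The arrays themselves were not alike. Of the 9 motor neuron markers (Mnx1, Isl1, Chat and others) all 9 were detected on at least 1 array and 7 on all 6. Their summed normalised intensity ran from 3799 to 4343 on the wild-type arrays and from 1442 to 5224 on the mutant arrays, and mutant replicate 1 was the array at 1442. Mutant replicate 3, at 2452, was also below every wild-type array, with a marker median of −0.58 relative to the wild-type mean on the log2 scale, against −0.68 on mutant replicate 1 and 0.268 on mutant replicate 2. Markers of other cells stood higher on mutant replicate 1 than on any other array for 8 of 8 mesenchyme genes, 8 of 8 endothelium genes, 6 of 7 blood genes and 5 of 6 detected progenitor genes. On that array the list medians were 3.85, 2.17, 4.47 and 1.38 above the wild-type mean on the log2 scale. Interneuron markers went the other way, lowest on that array for 8 of 9 genes, with a median of −1.06. The 2 detected sensory neuron markers had a median of −0.48 there. Wild-type replicate 1 held more blood and progenitor signal than the other wild-type arrays, with medians of 1.84 and 0.693 above the wild-type mean. All 9 interneuron markers and 6 of 8 progenitor markers were detected on all 6 arrays, those of the wild type included. Which cells gave that signal was not tested. Values without mutant replicate 1 are given beside the results it moved most.

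A probe was called detected on an array when its detection p-value was under 0.05, and detected probes began at 4.85 to 4.93 on the log2 scale, depending on the array. By this measure 13 of the 25 cadherin probes were detected on all 6 arrays and 6 on none. Over the whole array 15901 of 45281 probes were detected on all 6 arrays. The 17 probes detected on at least 3 arrays were tested, and they covered 9 of the 10 genes. Mutant replicate 1 had the fewest cadherin probes detected, 14, against 16 on mutant replicate 2 and 17 on each of the other arrays. Over all 45281 probes it did not have the fewest, with 20011 detected. Mutant replicate 2 had 19623, and the 6 arrays ran from 19307 to 20307.

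**Figure D1:**
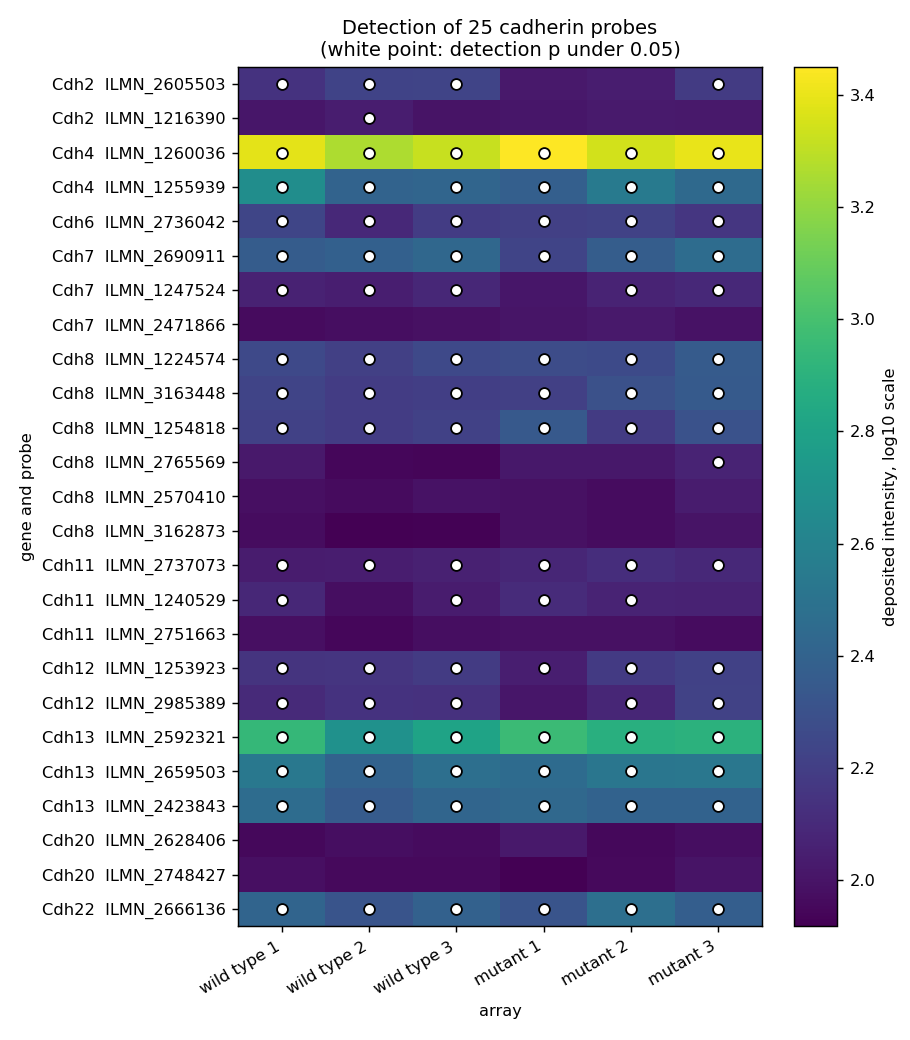
Detection of the 25 cadherin probes (vertical axis, gene and probe) on the 6 arrays (horizontal axis). Colour is the deposited intensity as a log10 value and a white point marks a detection p-value under 0.05. The Cdh20 rows carry no point, and the first Cdh2 row lacks one on mutant replicates 1 and 2.

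Cdh20, known as MN-cadherin in chick, where it marks motor neuron pools, was the member with no detected signal. Its 2 probes (ILMN_2628406 and ILMN_2748427, both on accession NM_011800) were detected on none of the 6 arrays. The log2 intensity of the first was 4.38, 4.56 and 4.42 on wild-type replicates 1 to 3 and 4.74, 4.32 and 4.35 on mutant replicates 1 to 3. The second stood between 4.25 and 4.51. All of these values lie below those of any detected probe on their array, so no difference can be read from them. The other 4 probes detected on no array were 1 for Cdh7, 2 for Cdh8 and 1 for Cdh11, genes that each had another probe detected on all 6 arrays. The 6 undetected probes had deposited intensities between 82.8 and 107.8. Why a probe of an otherwise detected gene gave no signal was not tested.

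Of the 17 probes tested, 0 passed at a limma adjusted p under 0.05, as for 0% of the 19735 probes tested on the array. The adjusted p was 0.998 for every one of the 17. An unadjusted p under 0.05 was reached by 1 cadherin probe, that of Cdh2, beside 1.9% of all probes tested (1.04% lower on the mutant arrays and 0.856% higher). The values of the 2 groups did not overlap for 0 of the 17, beside 5.93% of all probes tested. Differences, mutant minus wild type, were below 0 for 10 and above 0 for 7, with a median of −0.047 on the log2 scale. Over all probes tested 54.4% were below 0 and the median was −0.023. Without mutant replicate 1 the split was again 10 and 7, the median was −0.033, and 0 probes passed. In that fit 48.9% of all probes tested were below 0 and their median was 0.0043. An unadjusted p under 0.05 was then reached by 2 cadherin probes, those of Cdh2 and 1 of Cdh8, and by 476 of all 19735.

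**Figure D2:**
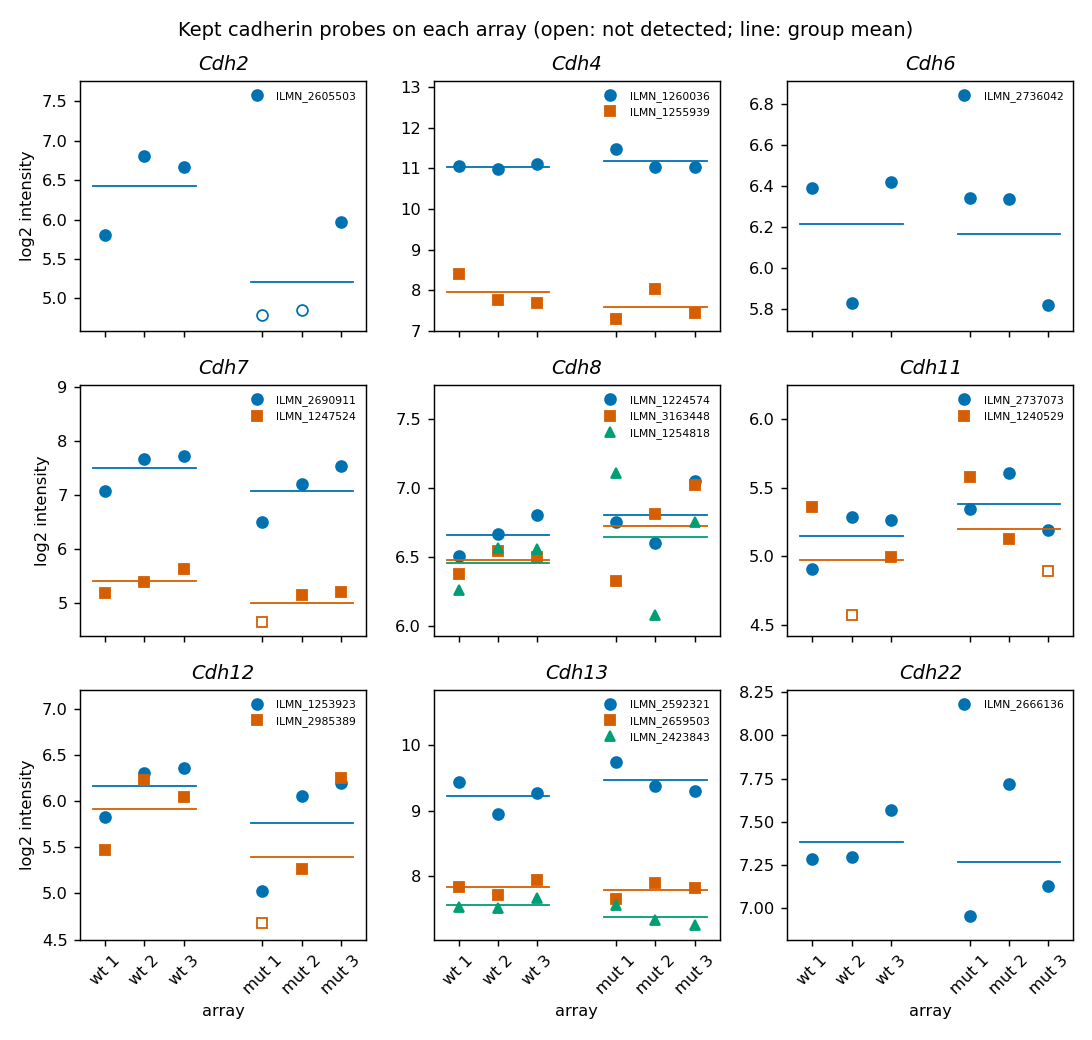
Normalised log2 intensity (vertical axis, 1 panel per gene with its own scale) of the 17 tested cadherin probes on each array (horizontal axis). Each point is 1 array, a line is the mean of 3 arrays, and open points were not detected. The groups overlap in every panel, and Cdh7 and Cdh12 are lowest on mutant replicate 1.

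Cdh2, which encodes N-cadherin, the type I cadherin of neural progenitors and neurons, gave the largest difference among the 17 probes tested. Its brighter probe, ILMN_2605503 (accession NM_007664, gene on chromosome 18), measured 5.80, 6.80 and 6.67 on wild-type replicates 1 to 3 and 4.78, 4.85 and 5.97 on mutant replicates 1 to 3. The groups overlapped, because mutant replicate 3 lay above wild-type replicate 1. The same probe had deposited intensities of 139.4, 168.7 and 170.1 on the wild-type arrays and 105.8, 109.8 and 152.0 on the mutant arrays. Its detection p-values on mutant replicates 1 and 2 were 0.0801 and 0.062, which left mutant replicate 3 as the mutant array with a detected value, against all 3 of the wild type.

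The mean of this Cdh2 probe was 6.42 ± 0.543 in wild type and 5.20 ± 0.668 in the mutant (SD, n = 3 each). The difference was −1.22 on the log2 scale (95% confidence interval −2.15 to −0.296), with a limma unadjusted p of 0.0166 and an adjusted p of 0.998. It did not pass. A difference of −1 or lower was found for 0.162% of all probes tested. Because 2 of the 3 mutant values lie at background, the size depends on how background was treated, and it was −0.51 with no background correction, −0.52 in the authors' normalised values and −0.75 with an offset of 50. The difference was −1.01 without mutant replicate 1 (95% interval −1.98 to −0.052, limma adjusted p 1). It was −1.61 without mutant replicate 3 (adjusted p 0.831 by limma), the farthest of the 6 fits that left out 1 array. The 95% interval reached past 0 in 3 of these 6 fits. It ran from −2.14 to 0.073 without wild-type replicate 2, from −2.24 to 0.041 without wild-type replicate 3 and from −2.13 to 0.033 without mutant replicate 2. Mutant replicate 2, where the probe was also undetected, had motor neuron markers at 0.268 and progenitor markers at −0.182 relative to the wild-type mean. That progenitor value lay within the wild-type range, which was 0.693, −0.43 and −0.20 on wild-type replicates 1 to 3. The part of the cell mix in the Cdh2 values was not tested. In sorted samples such as these, fewer cells that express a gene and less RNA per cell cannot be told apart.

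The other Cdh2 probe, ILMN_1216390 (accession AK084821), was detected only on wild-type replicate 2. Its values were 4.71, 5.33 and 4.65 on the wild-type arrays and 4.68, 4.74 and 4.59 on the mutant arrays, all but 1 of them below any detected probe of the array. It was not tested and does not measure the difference seen with the brighter probe.

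Cdh4 encodes R-cadherin, the type I cadherin first described in retina, and its 2 tested probes did not give the same sign. Probe ILMN_1260036, for which the annotation gives no accession, measured 11.05, 10.99 and 11.10 on the wild-type arrays and 11.49, 11.03 and 11.04 on the mutant arrays. Probe ILMN_1255939 (accession NM_009867) measured 8.41, 7.75 and 7.69, then 7.30, 8.02 and 7.44. On mutant replicate 1 the first probe had its highest value and the second its lowest. The differences were 0.138 (95% interval −0.283 to 0.559) and −0.36 (−1.01 to 0.28). Without mutant replicate 1 they were −0.014 and −0.22, and in no fit did either pass.

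Among the type II genes, Cdh7 and Cdh12 had a like order of values over the 6 arrays. Cdh7 is known from neural crest and neural tube, and Cdh12 is also called brain cadherin. The brighter Cdh7 probe, ILMN_2690911 (accession NM_172853), measured 7.08, 7.66 and 7.73 on the wild-type arrays and 6.50, 7.19 and 7.53 on the mutant arrays. The brighter Cdh12 probe, ILMN_1253923 (accession NM_001008420), measured 5.82, 6.30 and 6.36, then 5.03, 6.06 and 6.20. In both, mutant replicate 1 was the lowest array, wild-type replicate 1 the next lowest and wild-type replicate 3 the highest. The second probes, ILMN_1247524 for Cdh7 and ILMN_2985389 for Cdh12, were also lowest on mutant replicate 1, at 4.65 and 4.68, and were not detected there. The rest of their order differed, since the second Cdh12 probe was highest on mutant replicate 3, at 6.25, and lower on mutant replicate 2 (5.26) than on wild-type replicate 1 (5.47). The remaining Cdh7 probe, ILMN_2471866, was detected on no array.

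All 4 differences for Cdh7 and Cdh12 were below 0 and none passed. They were −0.42 (95% interval −1.13 to 0.302) and −0.39 (−0.895 to 0.106) for Cdh7, and −0.40 (−1.18 to 0.38) and −0.52 (−1.47 to 0.432) for Cdh12. Without mutant replicate 1 they were −0.13 and −0.22 for Cdh7 and −0.033 and −0.16 for Cdh12. Each was nearer to 0 than with all arrays. Leaving out mutant replicate 3 moved them the other way, to −0.64 and −0.50 for Cdh7 and to −0.62 and −0.94 for Cdh12. The last of these had a 95% interval of −1.67 to −0.22 and a limma unadjusted p of 0.0182 (adjusted 0.831). On mutant replicate 1 the motor neuron marker median was −0.68 and the interneuron marker median −1.06 relative to the wild-type mean, beside −0.99 and −0.75 for the Cdh7 probes and −1.14 and −1.24 for the Cdh12 probes. On mutant replicate 3 the motor neuron marker median was −0.58, beside 0.0424 and −0.19 for the Cdh7 probes and 0.0367 and 0.333 for the Cdh12 probes. The part of these markers' shift in the cadherin values was not tested.

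Likeness over the 6 arrays was measured as the root mean square distance between 2 genes' log2 deviations from their own means. The distance between Cdh7 and Cdh12 was 0.105, the smallest among the pairs of the 9 detected members. Over the 5 arrays without mutant replicate 1 it was 0.0874, again the smallest of the 36 pairs, in a comparison chosen after the values were seen. The pattern was common on these arrays. Of 2094 other named genes with an SD over 0.4 across arrays, 198 lay within 0.2 of Cdh7 and 205 within 0.2 of Cdh12. Over the same genes the counts were 244 and 279 without mutant replicate 1. The SDs of Cdh7 and Cdh12 were then 0.288 and 0.215, so a limit of 0.2 was close to their own spread. The counts without that array therefore do not measure a shared pattern. Over all 6 arrays the nearest were Dynll2 (0.0634) and Rbm11 (0.0743) for Cdh7, and Ppp2r3c (0.0453) and Dnajb6 (0.0636) for Cdh12. With all arrays, 0 of these genes lay within 0.2 of Cdh2, whose nearest were Prr3 (0.28) and Ccny (0.322), and 1 did without mutant replicate 1. The distance is not scaled by a gene's SD, which was 0.864 for Cdh2, 0.462 for Cdh7 and 0.498 for Cdh12. A fixed limit can therefore find fewer genes near Cdh2 whatever its pattern. Cdh2 was unlike the pair on mutant replicate 2, where its difference from the wild-type mean was −1.58 on the log2 scale, beside −0.30 for Cdh7 and −0.10 for Cdh12.

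Cdh7 and Cdh12 were chosen for display after their values were seen, as the closest pair, and the 250 bases before their RefSeq transcription starts are shown (build GRCm38.p6, plus strand for both genes). The Cdh7 window is the first of 3 starts listed for that gene, at chr1:109982650-109982899, and the Cdh12 window is at chr15:21111202-21111451. Capitals mark a motif match.
Cdh7: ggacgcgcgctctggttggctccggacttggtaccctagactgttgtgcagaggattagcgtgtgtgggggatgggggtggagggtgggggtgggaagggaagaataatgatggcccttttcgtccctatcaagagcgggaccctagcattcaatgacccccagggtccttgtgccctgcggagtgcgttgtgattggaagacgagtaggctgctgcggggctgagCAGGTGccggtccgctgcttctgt
Cdh12: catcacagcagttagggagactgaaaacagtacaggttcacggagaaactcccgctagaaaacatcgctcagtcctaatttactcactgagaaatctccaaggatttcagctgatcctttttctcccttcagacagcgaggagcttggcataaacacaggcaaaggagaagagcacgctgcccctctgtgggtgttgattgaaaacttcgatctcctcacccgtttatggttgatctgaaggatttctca

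Windows on chromosome 18, and so any of Cdh2, were left out of the member counts below but not of the counts over all genes. Among the other members, 6 had 1 or more windows in the promoter table, 8 windows in all. Both strands were searched for TGATTNAT, a site of Hox and Pbx proteins together, TAATTA, a homeodomain core, and CAGGTG, an E-box bound by repressors of the E-cadherin gene. A TGATTNAT match can overlap a TAATTA match. TGATTNAT was in 0 of the 8 windows and in 2.83% of 32817 windows of that length over all genes. TAATTA was in 1 of the 8, another start of Cdh7, and in 4.85% of all windows. CAGGTG was in 2 of the 8, both of Cdh7 and 1 of them printed above, and in 17.2% of all windows. Neither Cdh7 nor Cdh12 held the Hox and Pbx letters in these windows, which says nothing of sites elsewhere.

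Cdh8, a type II gene of motor neuron pools and of cortex, had 6 probes, the most of any member, and 3 of them were tested. All 3 differences were above 0, at 0.144, 0.246 and 0.189, and none passed. Probe ILMN_3163448 (accession NM_001039154) measured 6.38, 6.55 and 6.50 on the wild-type arrays and 6.33, 6.82 and 7.02 on the mutant arrays. Mutant replicate 1 was thus the lowest array and mutant replicates 2 and 3 the highest, and without replicate 1 the difference was 0.442 (95% interval 0.0592 to 0.824, limma unadjusted p 0.0293, adjusted p 1).

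The other Cdh8 probes did not share that order. Probe ILMN_1224574 (accession NM_007667) measured 6.51, 6.67 and 6.81, then 6.76, 6.60 and 7.05. Probe ILMN_1254818 (accession AK047589) measured 6.26, 6.56 and 6.56, then 7.11, 6.08 and 6.75, so that its highest and its lowest value were both on mutant arrays. Without mutant replicate 1 these differences were 0.168 and −0.041. Of the 3 probes not tested, ILMN_2765569 was detected only on mutant replicate 3, at 4.99, and the others on no array.

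Cdh11 is a type II cadherin of mesenchyme and of neurons, and both of its tested probes were dim. Probe ILMN_2737073 was detected on all 6 arrays and measured 4.91, 5.28 and 5.26 on the wild-type arrays and 5.34, 5.61 and 5.19 on the mutant arrays. Probe ILMN_1240529 measured 5.36, 4.58 and 4.99, then 5.58, 5.13 and 4.90, and was detected on 2 arrays of each group. The differences were 0.23 (95% interval −0.211 to 0.67) and 0.224 (−0.394 to 0.841). On mutant replicate 1, where the mesenchyme markers had a median of 3.85 above the wild-type mean, the Cdh11 probes stood at 0.191 and 0.6 above it. Without that array the differences were 0.249 and 0.036. The remaining probe, ILMN_2751663, was detected on no array.

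Cdh6, a type II cadherin of neural crest and motor neurons, had 1 probe, ILMN_2736042. It measured 6.39, 5.83 and 6.42 on the wild-type arrays and 6.34, 6.34 and 5.82 on the mutant arrays. Each group held 1 low array and 2 higher ones at nearly the same levels. The difference was −0.047 (95% interval −0.602 to 0.508).

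Cdh22, a type II cadherin of brain, also had 1 probe, ILMN_2666136. It measured 7.28, 7.30 and 7.57 on the wild-type arrays and 6.96, 7.72 and 7.13 on the mutant arrays. The highest and the lowest of the 6 values were both on mutant arrays, and the difference was −0.11 (95% interval −0.653 to 0.426). Without mutant replicate 1 it was 0.043.

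Cdh13 encodes T-cadherin, which is known from vessels and from neurons, including motor neurons. Its 3 probes, all on accession NM_019707, were detected on every array, and they did not share a sign. Probe ILMN_2592321 measured 9.43, 8.96 and 9.27 on the wild-type arrays and 9.74, 9.37 and 9.31 on the mutant arrays, highest on mutant replicate 1. Probe ILMN_2659503 measured 7.85, 7.71 and 7.94, then 7.65, 7.90 and 7.82. Probe ILMN_2423843 measured 7.53, 7.51 and 7.67, then 7.57, 7.34 and 7.26, with mutant replicates 2 and 3 below all wild-type arrays.

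The Cdh13 differences were 0.249 (95% interval −0.218 to 0.717), −0.043 (−0.408 to 0.323) and −0.18 (−0.55 to 0.188), and none passed. Without mutant replicate 1 they were 0.116, 0.027 and −0.27. Endothelium markers had a median of 2.17 above the wild-type mean on mutant replicate 1. There the 3 Cdh13 probes were at 0.516, −0.18 and −0.0034. Whether endothelial RNA took part in the first probe's value was not tested.

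**Figure D3:**
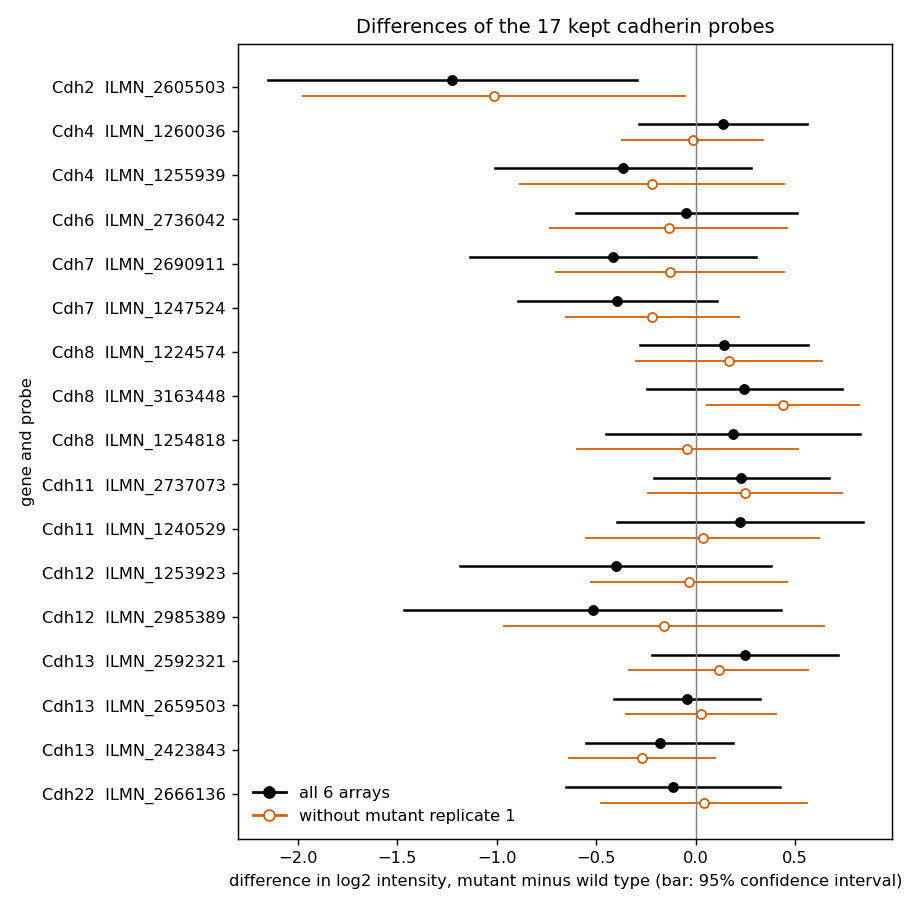
Difference in log2 intensity, mutant minus wild type (horizontal axis), of the 17 tested cadherin probes (vertical axis), with 95% confidence intervals as bars. Filled black points use all 6 arrays and open orange points leave out mutant replicate 1. The Cdh2 interval lies below 0 in both, and the Cdh7 and Cdh12 points lie nearer to 0 without that array.

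The precision of 3 against 3 arrays set what could be seen. The 95% interval reached to either side of the difference by 0.366 (a Cdh13 probe) to 0.95 (a Cdh12 probe) log2 units, with a median of 0.54. For 12 of the 17 probes the interval excluded a 2-fold difference of normalised intensity in either direction. Near background the offset and the background signal shrink log2 differences, so for dim probes such as those of Cdh11 and the second of Cdh7 this does not exclude a 2-fold difference in RNA. Of the 12, 2 probes were not detected on all 6 arrays. For the others, 1 probe of Cdh2, 1 of Cdh4, 1 of Cdh7 and both of Cdh12, a 2-fold lower level on the mutant arrays lay inside the interval. The within-group SD was larger among the mutant arrays for 12 of the 17 probes, with a median of 0.346 against 0.223. Over all probes tested the mutant SD was the larger for 63.4%. With mutant replicates 2 and 3 alone it was larger for 9 of the 17 and for 38.0% of all probes, though an SD over 2 arrays is itself imprecise.

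Mutant replicate 1 was the lowest of the 6 arrays for 9 of the 17 probes and the highest for 4. Over all probes tested it was the lowest for 36.9% and the highest for 23.4%. Wild-type replicate 3 was the highest array for 6 of the 17 and the lowest for 0, beside 13.6% and 11.3% of all probes tested.

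**Figure D4:**
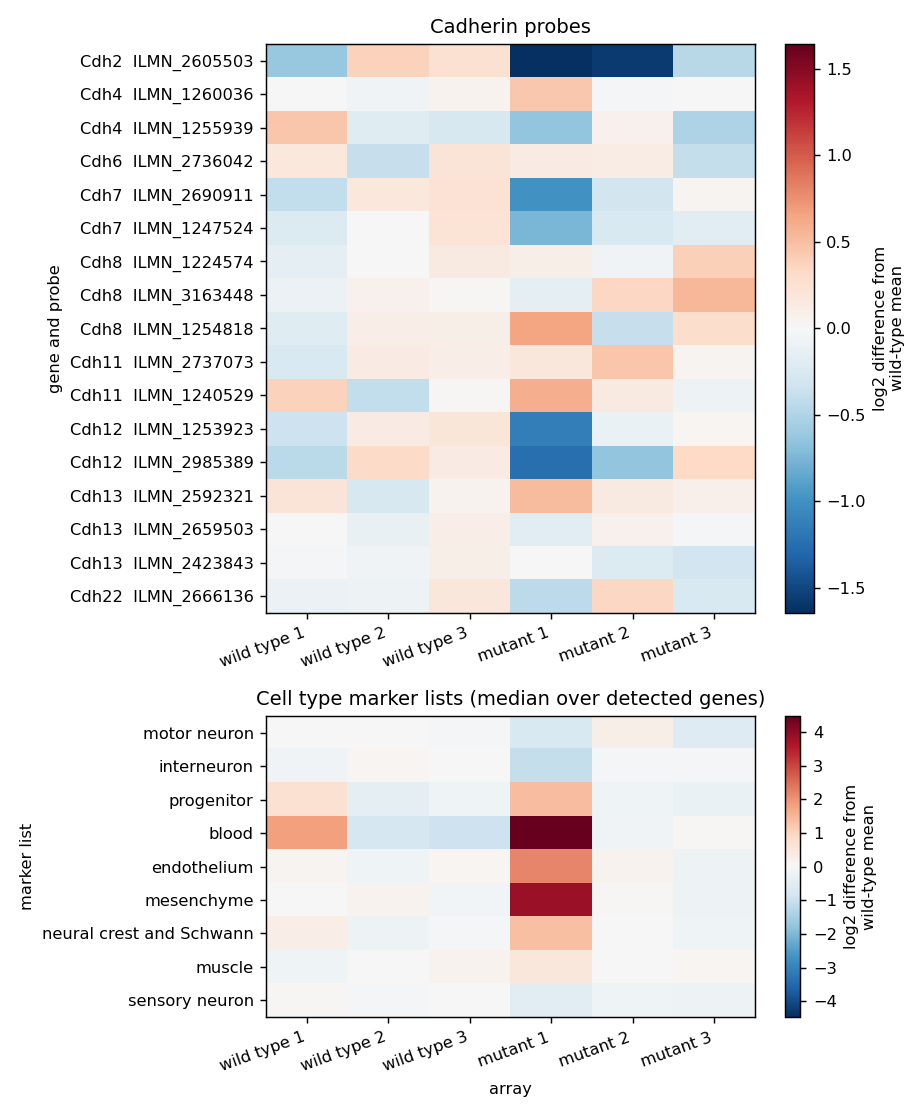
Log2 difference from the wild-type mean on each array (horizontal axis) for the 17 tested cadherin probes (upper panel) and, as medians over detected genes, for 9 cell type marker lists (lower panel, with a wider colour scale). Mutant replicate 1 is red for blood (4.47) and mesenchyme (3.85) and bluest for Cdh2, Cdh7 and Cdh12. It is also blue for 1 Cdh4 probe (−0.65) and Cdh22 (−0.43), and red for other cadherin probes, such as 1 of Cdh8 (0.65). Cdh2 is also blue on mutant replicate 2.

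Other genes of the family and their partners were then set beside the members. Of 13 other cadherin genes with 27 probes, 6 probes of 5 genes were detected on at least 3 arrays, and 0 passed in either direction. Their median difference was 0.067, with 5 above 0 and 1 below, beside 54.4% below 0 over all probes tested. The smallest unadjusted p-values were those of Cdh23, a cadherin of hair cell tip links, at 0.308 (95% interval −0.169 to 0.785), Cdh24 at −0.17 (−0.676 to 0.333) and Cdh18 at 0.094 (−0.277 to 0.466). The other Cdh24 probe was at 0.0836, and at −0.029 without mutant replicate 1. Cdh5, the cadherin of endothelium, was chosen here after its values were seen. Its brighter probe was detected only on mutant replicate 1, at 6.17, and stood between 4.38 and 4.78 on the other 5 arrays.

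Of the catenins and other partners of cadherins, 21 listed symbols had 60 probes, and 42 probes of 16 genes were tested. None passed, and 15 differences were above 0 and 27 below, beside 54.4% below 0 over all probes tested. The median was −0.099, beside −0.023 over all probes tested. Leaving out mutant replicate 1 gave medians of −0.044 and 0.0043. An unadjusted p under 0.05 was reached by 0 of the 42. Pkp4, a plakophilin of the p120 catenin family, had the smallest, with 8.07, 6.62 and 7.50 on the wild-type arrays and 9.33, 8.28 and 7.63 on the mutant arrays. The difference for that Pkp4 probe was 1.02 (95% interval −0.16 to 2.21, limma adjusted p 0.998), while 2 other Pkp4 probes were both at 0.096. The first Pkp4 probe was highest on mutant replicate 1 and stood at 0.564 (−0.42 to 1.55) without it. A probe of Arvcf, another gene of the p120 family, was at 0.372 and its other 2 at −0.11 and −0.028. Ctnnd2, which encodes delta-catenin, was at −0.53, −0.28 and −0.15 for its 3 tested probes, each lowest on mutant replicate 1. Without that array the Ctnnd2 probes were at −0.15, −0.075 and 0.0445.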

How the data were processed

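Intensities and detection p-values of 6 single-colour bead arrays, 3 wild type and 3 mutant, were taken from the authors' deposited non-normalized table. Per the file headers each array has 2 columns there, a linear intensity and a detection p-value. A second deposited table holds intensities that the authors normalized between arrays. Quantile normalization of the first table gave them within 1.43% for every probe, which leaves no centring by gene. The sources used here do not give the scanner software, the slides or the background treatment. Every column of values matched a sample.

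The normexp correction of limma 3.58.1 (R 4.3.3) removed background, guided by detection p-values and with 16 added as an offset. Log2 values were then quantile normalized. Probes with a detection p under 0.05 on at least 3 of 6 arrays were kept (19735 of 45281), each on its own. Between 19307 and 20307 probes were detected per array, and the number of arrays limits the precision. Symbols came from the platform annotation. A single symbol was given for 34885 of 45281 probes, several for 18, and 10378 are unnamed here. RefSeq (GRCm38.p6) matched 34807 by gene identifier, changed 0 symbols and gave chromosomes.

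The comparison of mutant with wild type used lmFit and eBayes of limma, with the Benjamini-Hochberg adjustment taken over all probes kept. The fit was first tried on simulated data, with independent noise of equal spread in both groups. That setting had no array that differed from the rest as mutant replicate 1 did, so it does not show how the fit behaves here. Members and lists were chosen with earlier results of these data known. Genes named beyond the members are the 3 with the smallest p in each list, the Hox5 targets and the 2 genes nearest in pattern to each member with an SD over 0.4. The alternatives were other background corrections, normalizations, filters, variance models, array weights, 1 probe per gene, a replicate block and leaving out each array.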

Additional observations from a re-analysis of the deposited data

How the results depend on the processing

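No cadherin probe passed under any of the 18 alternatives. The smallest limma adjusted p of any was 0.831, without mutant replicate 3, and probes of Cdh2, Cdh7, Cdh11, Cdh12 and Cdh13 shared it. Of 294 differences recomputed, 281 kept their sign and 13 did not, all 13 in Cdh13, Cdh22, Cdh4, Cdh6 and Cdh8, and 12 of the 17 probes never turned. With cyclic loess, median scaling and array weights the Cdh13 probe ILMN_2659503 was at 0.0030, 0.0099 and 0.00039. Array weights also turned Cdh22 to 0.063 and the Cdh8 probe ILMN_1254818 to −0.13. Leaving out 1 array at a time gave −0.10 to 0.027 for that Cdh13 probe, −0.34 to 0.043 for Cdh22, −0.014 to 0.217 for the Cdh4 probe ILMN_1260036, −0.24 to 0.126 for Cdh6, −0.041 to 0.472 for the Cdh8 probe ILMN_1254818 and −1.61 to −1.01 for Cdh2. The median over the tested cadherin probes ran from −0.16 (without wild-type replicate 2) to 0.013 (without wild-type replicate 3), the count of all probes that passed from 0 to 1, the other cadherins' median from −0.025 to 0.112 and that of the partners from −0.15 to −0.044. Median scaling passed 1 probe in all, of Thap4, and leaving out mutant replicate 3 passed 1, of Cops8. The causes were not tested. Detected on all 6 arrays, no other cadherin and no tested Cdh2 probe was left, so no value was given there. With the replicate number as a block, Cdh2 was at −1.22 (limma adjusted p 0.954) and 0 probes passed. Same-numbered arrays correlated at 0.325, 0.0229 and 0.136 in their deviations from group means, and differently numbered ones at −0.48 to 0.392. With 3 arrays per group, these values cannot tell whether same-numbered samples share more than a number.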
